A study of Mus musculus with 6 samples.

Results

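Genes of protein folding and quality control in the endoplasmic reticulum (ER) were followed in mouse splenocytes, 9 in all: Calr, Canx, Pdia3, Pdia4, Pdia6, Manf, Herpud1, Sel1l and Edem1. They were chosen by name from the deposited table of gene counts, which lists 56413 symbols, and all 9 were found and all 9 were among the 18716 symbols tested. Ribosomal-RNA-depleted total RNA of fresh total splenocytes was sequenced in 3 Top3b-KO and 3 WT libraries. By their genotype label the Top3b-KO cells carry a knockout of Top3b, the gene for topoisomerase III-beta, which relaxes DNA and can also act on RNA. The study's stated interest is what this enzyme does against tumours and immune disorder. The labels give no strain, age or sex, do not say how the allele was made, and do not say whether the libraries of a genotype came from separate animals. They describe 2 stranded, rRNA-depleting library kits, different Illumina instruments and unequal read lengths, without saying which library was made or read in which way, so a technical split between libraries could not be checked. The p-values therefore rest on library-to-library spread that may be technical.

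Secreted and membrane proteins fold inside the ER. Calreticulin and calnexin hold new glycoproteins by their sugar chains, protein disulphide isomerases form and rearrange their disulphide bonds, and proteins that do not fold are trimmed, passed back across the membrane and destroyed by ER-associated degradation. When folding falls behind, the unfolded protein response raises many of these genes through the factors ATF6 and XBP1. In the spleen, antibody-secreting plasma cells carry a heavy load on this machinery, and calreticulin with Pdia3 also takes part in loading peptides onto MHC class I.

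The promoters of several of these genes hold the DNA element through which ATF6 acts, the ER stress response element (ERSE, the letters CCAAT and CCACG with 9 free bases between them), or its shorter relative ERSE-II (ATTGG and CCACG with 1 free base between them). RefSeq promoter sequence of build GRCm38.p6 was at hand for 8 of the 9 genes, and both strands of the 250 bases before each gene start were searched. The stretches that hold an exact match are shown because they set Herpud1, with ERSE-II, apart from Calr, Canx and Pdia6, with ERSE. Capitals mark the fixed letters of the element, and in Calr the element runs on the opposite strand.
Calr: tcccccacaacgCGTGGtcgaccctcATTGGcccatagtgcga
Canx: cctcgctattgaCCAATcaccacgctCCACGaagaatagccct
Pdia6: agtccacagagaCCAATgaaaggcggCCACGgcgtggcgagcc
Herpud1: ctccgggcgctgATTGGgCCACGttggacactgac

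These stretches lie at chr8:84847063-84847105 (minus strand) for Calr, chr11:50325788-50325830 (minus strand) for Canx, chr12:17266479-17266521 (plus strand) for Pdia6 and chr8:94386365-94386399 (plus strand) for Herpud1, all in GRCm38.p6. Of the other genes, Pdia3 lies on chromosome 2, Pdia4 and Edem1 on chromosome 6, Manf on chromosome 9 and Sel1l on chromosome 12. The element began 162 bases before the gene start in Calr, 145 in Canx, 98 in Pdia6 and 52 in Herpud1. An exact ERSE occurred in 37 of 32851 promoter windows of that length (0.113%), and an exact ERSE-II in 10 (0.0304%). With 1 fixed letter allowed to differ, an ERSE was found in 6 of the 8 genes (Calr, Canx, Pdia3, Pdia4, Pdia6 and Sel1l), against 1.32% of all windows, and an ERSE-II in 3 of the 8 (Edem1, Herpud1 and Sel1l), against 1.03%. The shorter letters GACGTGG, a core of XBP1 binding sites, occurred in Pdia6 and in 1.97% of windows, and did not overlap the Pdia6 ERSE. Matches among the 8 were counted by gene and the shares beside them by promoter window. A match of letters is a description and not a measured binding site.

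The libraries held between 9941019 and 25473405 counts, with the lowest total in Top3b-KO replicate 3, where 3 counts correspond to 0.303 CPM (counts scaled to a common library total, here with TMM factors). Top3b itself had 51.5, 48.2 and 49.7 CPM in the Top3b-KO libraries, against 95.1, 86.9 and 91.0 CPM in the WT libraries. On the log2 scale Top3b-KO over WT was -0.87 (SE 0.071, adjusted p 5.78e-06 in edgeR, from quasi-likelihood F tests adjusted by the Benjamini-Hochberg method across the 18716 symbols). The Top3b-KO mean was thus 0.547 of the WT mean, and which exons the knockout removes is not stated in the labels. Of 5 leukocyte markers the least abundant, Cd52, was at 102 CPM or more in each library, and 7 of 8 pancreatic genes, checked for neighbouring tissue, were too low to test.

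The 9 ER folding genes showed no difference between Top3b-KO and WT splenocytes that exceeded the spread between libraries. At an adjusted p under 0.05 in edgeR, 0 of the 9 passed, against 0.0107% of all tested genes (2 of 18716, 0.00534% higher and 0.00534% lower in Top3b-KO). At an unadjusted p under 0.05 the count was also 0 of 9, against 5.52% of all tested genes (1.83% higher and 3.69% lower in Top3b-KO). DESeq2 gave 0 at either threshold, and limma-voom gave 0 adjusted and 1 unadjusted, Canx. Their log2 fold changes, Top3b-KO over WT, ran from -0.047 for Herpud1 to 0.14 for Canx, with a median of 0.052, beside a median of -0.0029 over all tested genes. For 8 of the 9 the value was above 0, against 49.1% of all tested genes, but these genes vary together between libraries and the count carries no test. For 0 of the 9 did the CPM values of the genotypes separate without overlap, against 11.0% of all tested genes (5.39% with Top3b-KO above, 5.63% with Top3b-KO below). With 1 library omitted, separation by genotype is more frequent among all genes. The count was then 2 of 9 against 18.6% of tested genes (Top3b-KO replicate 3 omitted), 4 of 9 against 20.5% (WT replicate 1 omitted), 1 of 9 against 31.0% (WT replicate 3 omitted), and 0 of 9 against 18.2% to 22.2% on omitting any of the others. The median log2 fold change ranged from 0.026 (WT replicate 2 omitted) to 0.091 (WT replicate 1 omitted).

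**Figure D1:**
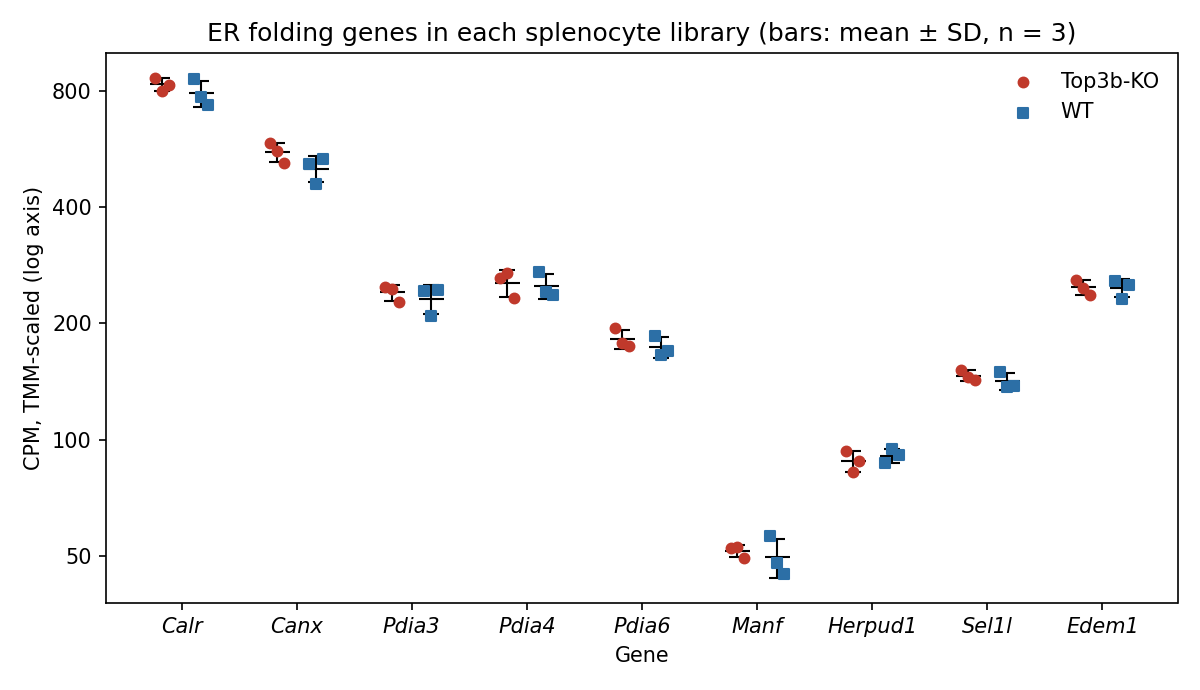
CPM of the 9 ER folding genes in each library on a log axis, with Top3b-KO libraries as red circles and WT libraries as blue squares, and black bars for the mean ± SD (n = 3). For each gene the points of the genotypes overlap.

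Calr encodes calreticulin, the soluble lectin chaperone and calcium store of the ER. It had 862, 800.0 and 829 CPM in the Top3b-KO libraries, against 855, 771 and 735 CPM in the WT libraries. Top3b-KO replicate 1 and WT replicate 1 were the highest libraries, and the genotypes overlapped. The means were 831 ± 31.2 CPM in Top3b-KO and 787 ± 61.5 CPM in WT (SD, n = 3). On the log2 scale the difference was 0.078 (SE 0.070, 95% interval -0.070 to 0.23, adjusted p 0.94 by edgeR), and it was 0.030 with WT replicate 3 omitted and 0.14 with WT replicate 1 omitted.

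Canx encodes calnexin, the membrane-bound partner of calreticulin, and had the widest difference of the 9 genes. It had 585, 558 and 520.0 CPM in the Top3b-KO libraries, against 517, 459 and 532 CPM in the WT libraries. The first and second Top3b-KO libraries lay above each WT library, whereas Top3b-KO replicate 3 fell below WT replicate 3. The means were 554 ± 32.6 CPM in Top3b-KO and 503 ± 38.3 CPM in WT (SD, n = 3). On the log2 scale the difference was 0.14 (SE 0.072, 95% interval -0.0090 to 0.29), with an unadjusted p of 0.064 and an adjusted p of 0.91 in edgeR. It was 0.080 without WT replicate 2, the library with the lowest Canx level, and was 0.19 without Top3b-KO replicate 3.

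The ratio of Calr to Canx counts within a library does not depend on how libraries are scaled, and 3 such ratios were chosen after the values had been seen. It was 1.47, 1.43 and 1.59 in the Top3b-KO libraries, against 1.65, 1.68 and 1.38 in the WT libraries. WT replicate 3 had the lowest ratio of all 6 and the other WT libraries the highest, so the genotypes overlapped. A two-sided exact permutation test gave p = 0.7, and p = 0.7 after adjustment over the 3 ratios compared here, where 3 against 3 libraries cannot give a p under 0.1.

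Pdia3, also known as ERp57, is the disulphide isomerase that calreticulin and calnexin recruit to glycoproteins. Its levels were 248, 246 and 228 CPM in the Top3b-KO libraries, against 242, 209 and 245 CPM in the WT libraries. WT replicate 2 stood lowest, and the other 5 libraries lay within a narrow band that mixed the genotypes. The log2 fold change was 0.054 (SE 0.072, 95% interval -0.097 to 0.20, adjusted p 0.96 by edgeR).

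Pdia4 and Pdia6 are further disulphide isomerases, which work alongside the chaperone BiP. Pdia4 had 262, 269.7 and 232 CPM in the Top3b-KO libraries, against 271, 241 and 237 CPM in the WT libraries. Its highest library was WT replicate 1 and its lowest Top3b-KO replicate 3, and the other libraries of both genotypes lay between them. Pdia6 had 194, 178 and 175 CPM in the Top3b-KO libraries, against 186, 166 and 169.6 CPM in the WT libraries. Here the first library of each genotype was its highest, as it was for Calr. The log2 fold changes were 0.030 (SE 0.073, 95% interval -0.12 to 0.18) for Pdia4 and 0.070 (SE 0.069, 95% interval -0.074 to 0.21) for Pdia6, with adjusted p of 0.98 and 0.95 by edgeR. With 1 library omitted Pdia4 ranged from -0.0083 (Top3b-KO replicate 2) to 0.091 (WT replicate 1), and Pdia6 from 0.028 (Top3b-KO replicate 1) to 0.12 (WT replicate 1). The Pdia4 to Pdia6 count ratio was 1.40 ± 0.103 in Top3b-KO and 1.44 ± 0.0351 in WT (SD, n = 3, exact permutation p = 0.6, 0.7 after adjustment over the 3 ratios).

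Manf encodes a small secreted ER protein that is released under stress and binds BiP. It had 52.4, 52.8 and 49.4 CPM in the Top3b-KO libraries, against 56.2, 48.1 and 45.1 CPM in the WT libraries. The WT libraries spread on both sides of the Top3b-KO ones, and the coefficient of variation was 3.61% in Top3b-KO and 11.6% in WT, the largest WT value of the 9 genes. The log2 fold change was 0.052 (SE 0.085, 95% interval -0.13 to 0.23, adjusted p 0.97 by edgeR). In the GENCODE M21 annotation exons of Manf share positions with Rbm15b on the same strand and with Dcaf1 on the other, and Pdia3 and Pdia6 share some with the weakly expressed Catsper2 and Atp6v1c2 on the other strand. Reads from positions shared with Rbm15b cannot be told apart by strand under any setting, and Rbm15b averaged 106 CPM in Top3b-KO and 110 CPM in WT. For the genes on the other strand this depends on the strand setting of the counting, which was not given.

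Sel1l, Herpud1 and Edem1 act in ER-associated degradation. Sel1l is the adaptor that stabilises the ubiquitin ligase Syvn1 (HRD1), and Herpud1 is a stress-induced membrane protein of the same complex. Herpud1 had 93.5, 82.6 and 88.0 CPM in the Top3b-KO libraries, against 87.2, 94.5 and 91.2 CPM in the WT libraries. It was the single gene of the 9 with a log2 fold change below 0, at -0.047 (SE 0.070, 95% interval -0.19 to 0.10, adjusted p 0.97 by edgeR), and its genotypes overlapped.

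Sel1l had 152, 145 and 143 CPM in the Top3b-KO libraries, against 149.9, 137 and 138 CPM in the WT libraries. It was the steadiest of the 9 genes, with its highest library 1.11 times its lowest, and its log2 fold change was 0.049 (SE 0.065, 95% interval -0.087 to 0.19, adjusted p 0.96 by edgeR), or 0.026 with WT replicate 2 omitted and 0.090 with WT replicate 1 omitted. The Herpud1 to Sel1l count ratio was 0.601 ± 0.0267 in Top3b-KO and 0.644 ± 0.0560 in WT (SD, n = 3, exact permutation p = 0.3, 0.7 after adjustment over the 3 ratios).

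Edem1 helps to trim mannose from glycoproteins that fail to fold and marks them for destruction. It had 259, 248 and 237 CPM in the Top3b-KO libraries, against 257, 232 and 251 CPM in the WT libraries. Its log2 fold change of 0.0063 (SE 0.066, 95% interval -0.13 to 0.14, adjusted p 0.997 by edgeR) was the closest to 0, and it changed sign, to -0.0056, when libraries were scaled by their totals alone.

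**Figure D2:**
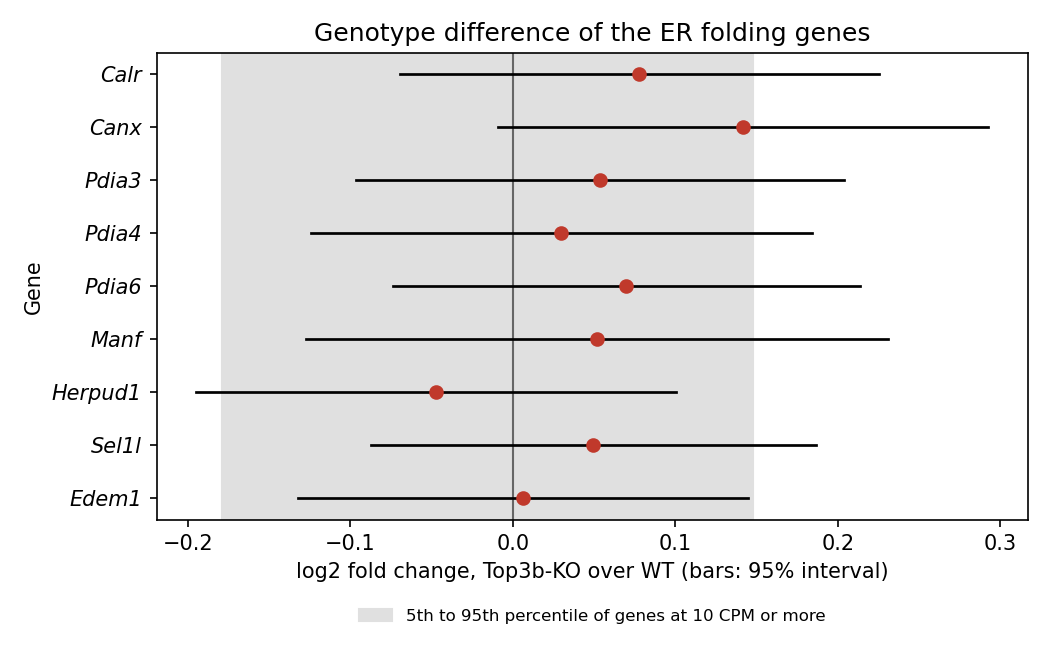
Log2 fold change of the 9 ER folding genes, Top3b-KO over WT, as red points with 95% intervals from edgeR's quasi-likelihood fit. Each interval crosses 0, and the grey band spans the 5th to 95th percentile (-0.18 to 0.15) of the 9669 genes at 10 CPM or more.

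Read as ratios, the 9 intervals together ran from 0.874 to 1.22, so Top3b-KO levels above 1.22 times or below 0.874 times the WT level lay outside the 95% interval of each gene. Single intervals were narrower, such as 0.874 to 1.07 for Herpud1 and 0.994 to 1.22 for Canx. Differences within a gene's own interval were not resolved. The fitted ratios themselves were between 0.968 and 1.10. In bulk RNA a change in the number of cells of a type and a change in RNA per cell cannot be told apart.

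Levels of different genes were compared per kilobase of transcript, using the GENCODE M21 coding transcript linked to RefSeq. Calr was the most abundant, between 337 and 395 CPM per kb over the 6 libraries, and its lowest library lay above each library of the next gene, Canx, at 107 to 137 CPM per kb. Pdia4 followed at 96.7 to 113 CPM per kb, a range overlapping that of Canx, although Canx was above Pdia4 within each library. Pdia3 at 75.4 to 89.6 and Pdia6 at 76.3 to 89.2 CPM per kb could not be ordered by their ranges. The degradation genes were lower, with Herpud1 at 42.3 to 48.4 and Edem1 at 39.9 to 44.5 CPM per kb overlapping each other, and Sel1l at 21.8 to 24.1 CPM per kb overlapping Manf at 20.1 to 25.0 CPM per kb. The 9 genes together made up 0.270%, 0.256% and 0.249% of all counts in the Top3b-KO libraries, against 0.263%, 0.236% and 0.245% in the WT libraries.

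Libraries of the same genotype also differed from each other in these genes, mostly in the same direction for gene after gene. The deviation of a gene in a library is its log2 CPM minus its mean over the 6 libraries. Averaged over the 9 genes it was 0.085, 0.021 and -0.034 in the Top3b-KO libraries, against 0.055, -0.084 and -0.044 in the WT libraries. All 9 genes were above their mean in Top3b-KO replicate 1 and 7 of 9 in WT replicate 1, whereas 1 of 9 was above it in Top3b-KO replicate 3 and in WT replicate 2. The highest library was Top3b-KO replicate 1 for 6 genes and WT replicate 1 for Pdia4 and Manf, and the lowest was WT replicate 2 for 5 genes. The median deviation over all genes at 10 CPM or more stayed between -0.0079 and 0.0074 in these libraries. TMM scaling itself holds this median close to 0, so it does not show whether other groups of genes shifted as much.

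Herpud1 did not follow this order. Its highest library was WT replicate 2, where Canx and Pdia3 were at their lowest, and its lowest was Top3b-KO replicate 2. Described by Pearson's r of log2 CPM over the 6 libraries, which share scaling and depth, the 28 pairs among the other 8 genes had r above 0 (up to 0.98 for Pdia6 and Sel1l), and the 8 pairs with Herpud1 had r from -0.47 to -0.11.

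**Figure D3:**
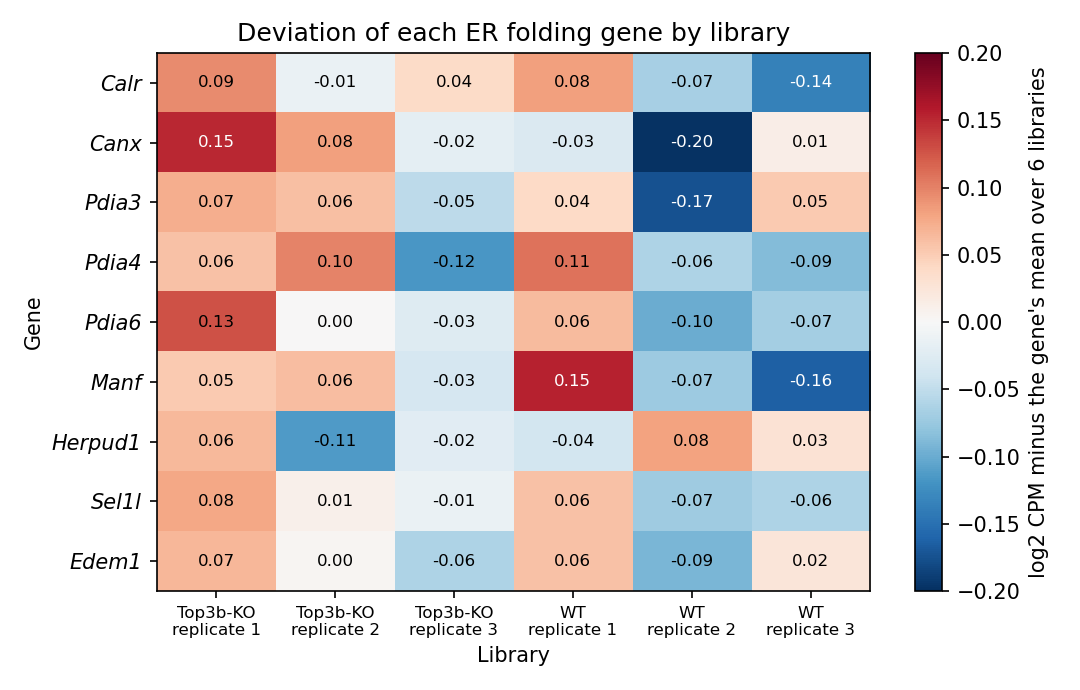
Deviation of each ER folding gene (rows) in each library (columns, Top3b-KO left, WT right) from its own mean over 6 libraries, in log2 units, red above and blue below. Top3b-KO replicate 1 is above the mean for all 9 genes, WT replicate 2 is below it for all but Herpud1.

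The genes outside the set whose levels followed the set's mean deviation most closely over the 6 libraries, among 9094 genes at 10 CPM or more, were Kbtbd11 (r = 0.987), the replicative helicase gene Mcm4 (0.987), Hsp90b1 (0.984), Crtam (0.979), Ttc21b (0.977) and Hspa5 (0.977). These genes were picked as the highest of 9094 values of r over only 6 libraries, so r is a description and carries no test. Hspa5 encodes BiP, the main ER chaperone of the HSP70 family, and Hsp90b1 encodes the ER member of the HSP90 family. Hspa5 had 989, 949 and 881 CPM in the Top3b-KO libraries, against 952, 831 and 889 CPM in the WT libraries. Hsp90b1 had 482, 435 and 406 CPM in the Top3b-KO libraries, against 484, 367 and 399.7 CPM in the WT libraries. For both, Top3b-KO replicate 1 and WT replicate 1 were the highest pair and WT replicate 2 was the lowest library. Their choice by r already favours this order, so it is no separate evidence. Other ER genes, from the lists read below, did not all follow the set's mean deviation. Dnajc3 and Faf2 had r of 0.970 and 0.964, whereas Eif2ak3, Derl1, Cnpy3 and Ero1b had -0.83, -0.78, -0.74 and -0.69.

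Levels of cell type markers also differed between the first library of a genotype and its others. The summed level of the 10 plasma cell markers was 1192, 742 and 667 CPM in the Top3b-KO libraries, against 1002, 767 and 857 CPM in the WT libraries. Jchain, the joining chain of secreted IgA and IgM, had 237, 175 and 120.1 CPM in the Top3b-KO libraries, against 236, 147 and 170.3 CPM in the WT libraries. Igha, Jchain and Irf4 made up most of the sum in each library. Of the 10 markers, 6 (Xbp1, Jchain, Prdm1, Ighg1, Ighg2b and Igha) were highest in the first library of both genotypes, whereas Mzb1 and Tnfrsf17 were lowest of the Top3b-KO libraries there and Irf4 lowest of the WT libraries. Xbp1 is also in the list of the unfolded protein response. No plasma cell marker was at 0, the lowest being Tnfrsf17 at 0.369 CPM in one library, and 0 of 10 passed the adjusted threshold by edgeR (0 at an unadjusted p under 0.05).

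The 7 neutrophil markers ran the other way, with sums of 434, 602 and 1449 CPM in the Top3b-KO libraries, against 604, 1071 and 731 CPM in the WT libraries, and each of the 7 was lowest in the first library of both genotypes. The 5 B cell markers summed to 2902, 2959 and 3050 CPM in the Top3b-KO libraries, against 2731, 3211 and 3266 CPM in the WT libraries, again lowest in the first of each. Cd79a and Cd79b, the signalling chains of the B cell receptor, and Pax5, a B cell transcription factor, ran opposite to the mean deviation of the ER folding genes, with r of -0.967, -0.910 and -0.83 over the 6 libraries, and Cd79a ranked 9089 of the 9094 genes. The 5 T cell markers summed to 866, 857 and 834 CPM in the Top3b-KO libraries, against 869, 769 and 769 CPM in the WT libraries, highest in the first of each, although Lck alone of the 5 was highest there in both genotypes. Log2 fold changes were above 0 for all 5 T cell markers and below 0 for all 5 B cell markers, with 0 past the adjusted threshold. Cd3e was higher in each Top3b-KO library than in each WT library, as were 5.39% of all tested genes. Its log2 fold change was 0.17 (SE 0.063, unadjusted p 0.016, adjusted p 0.83 by edgeR). The 8 erythroid markers summed to 1180, 806 and 906 CPM in the Top3b-KO libraries, against 1007, 1741 and 1166 CPM in the WT libraries. The sum in the first library was thus highest in Top3b-KO but lowest in WT. Epor and Klf1, 2 of the 8, were highest in the first library of both genotypes. Each of the 8 had a log2 fold change below 0 (median -0.39). By edgeR 0 passed the adjusted threshold, and 0 had an unadjusted p under 0.05. The 7 monocyte and macrophage markers summed to 736, 862 and 945 CPM in the Top3b-KO libraries, against 812, 879 and 877 CPM in the WT libraries. These sums were lowest in the first of each, although 2 of the 7 were lowest there in both genotypes and 2 highest. The part of these cell types in the levels of the ER folding genes was not tested.

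**Figure D4:**
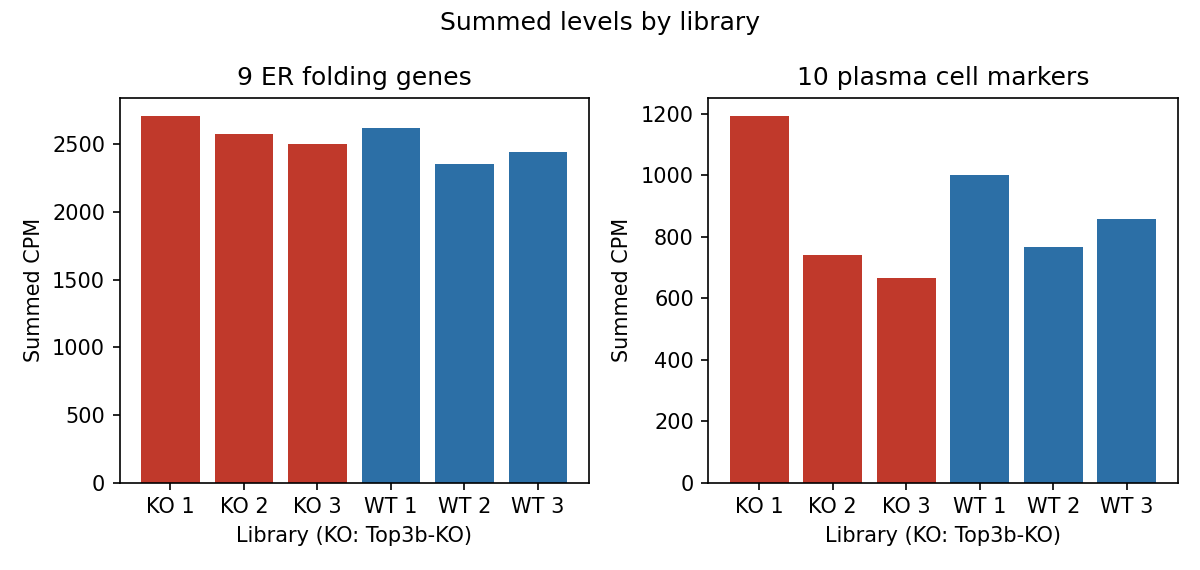
Summed CPM of the 9 ER folding genes (left) and of the 10 plasma cell markers (right) in each library, Top3b-KO in red and WT in blue. Replicate 1 is the highest library of each genotype in both panels, at 2708 and 2621 CPM for the ER folding genes and 1192 and 1002 CPM for the markers.

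The rest of the pathway was read from 6 further lists with 88 tested genes. None of the 88 passed the adjusted threshold in either direction by edgeR, 3 had an unadjusted p under 0.05 (0 higher, 3 lower in Top3b-KO, where 5.52% of all tested genes had one), and 44 had log2 fold changes above 0 and 44 below. Their median was 0.0021.

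Of 18 other ER chaperones and cochaperones, 0 passed and the median log2 fold change was 0.019. The most abundant, Hspa5 and Hsp90b1, had log2 fold changes of 0.078 (SE 0.071) and 0.083 (SE 0.093). Those with the smallest p were Cnpy3, a chaperone of Toll-like receptors, at -0.12 (SE 0.073), and Dnajb9, a BiP cochaperone, at 0.14 (SE 0.082), with adjusted p of 0.91 each by edgeR.

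Of 13 other oxidoreductases, 0 passed and the median was -0.021. P4hb, the founding disulphide isomerase, was at 189 ± 6.86 CPM in Top3b-KO and 192 ± 14.3 CPM in WT (SD, n = 3, log2 fold change -0.021). Ero1b, which reoxidises these isomerases, had a log2 fold change of -0.095, and Txndc12 and Erp29, those with the smallest p, had 0.14 and -0.097, with adjusted p of 0.91 and 0.92 by edgeR.

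Among 11 genes of glycan trimming and the calnexin cycle 0 passed, with a median of 0.0095. Uggt1, the folding sensor that returns glycoproteins to calnexin and calreticulin, was at 251 ± 3.66 CPM in Top3b-KO and 244 ± 5.93 CPM in WT (SD, n = 3), and Mlec, a lectin, had a log2 fold change of 0.035. Mogs, the glucosidase that removes the outermost glucose, had 68.0, 62.3 and 62.6 CPM in the Top3b-KO libraries, against 80.3, 74.5 and 64.1 CPM in the WT libraries. Its log2 fold change was -0.18 (SE 0.083), with an unadjusted p of 0.043 and an adjusted p of 0.89 by edgeR, and Prkcsh, a glucosidase subunit, had -0.10.

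Of 24 tested genes of ER-associated degradation, 0 passed, the median was 0.0013, and 2 were lower in Top3b-KO without overlap between genotypes, Syvn1 and Selenos, beside 5.63% of all tested genes. Syvn1, the ligase that Sel1l and Herpud1 work with, had 146, 114 and 129.7 CPM in the Top3b-KO libraries, against 155, 149 and 150.3 CPM in the WT libraries. Each Top3b-KO library lay below each WT library, with a log2 fold change of -0.22 (SE 0.079), an unadjusted p of 0.012 and an adjusted p of 0.83 in edgeR. Selenos had a log2 fold change of -0.13 (SE 0.089), and the abundant Vcp, the ATPase that pulls substrates out of the membrane, and Marchf6, another ligase, had 0.026 and 0.044.

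Of 14 sensors and factors of the unfolded protein response, 0 passed and the median was 0.024. Atf6b, a relative of the ATF6 sensor, had 71.3, 60.7 and 57.7 CPM in the Top3b-KO libraries, against 78.9, 82.1 and 70.2 CPM in the WT libraries. Top3b-KO replicate 1 lay just above WT replicate 3, so the genotypes overlapped, and the log2 fold change was -0.28 (SE 0.086), with an unadjusted p of 0.0042 and an adjusted p of 0.67 in edgeR. Ppp1r15a, with the second smallest p, had 0.12, and the abundant Ppp1r15b and Atf4 had 0.067 and -0.059.

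Of 8 partners in MHC class I peptide loading, 0 passed and the median was -0.047. The class I heavy chain genes H2-K1 and H2-D1 had log2 fold changes of -0.054 and -0.060, and Erap1, a peptide-trimming protease, and Tap1, a peptide transporter subunit, had 0.093 and -0.076, with adjusted p of 0.92 and 0.93 by edgeR.

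**Figure D5:**
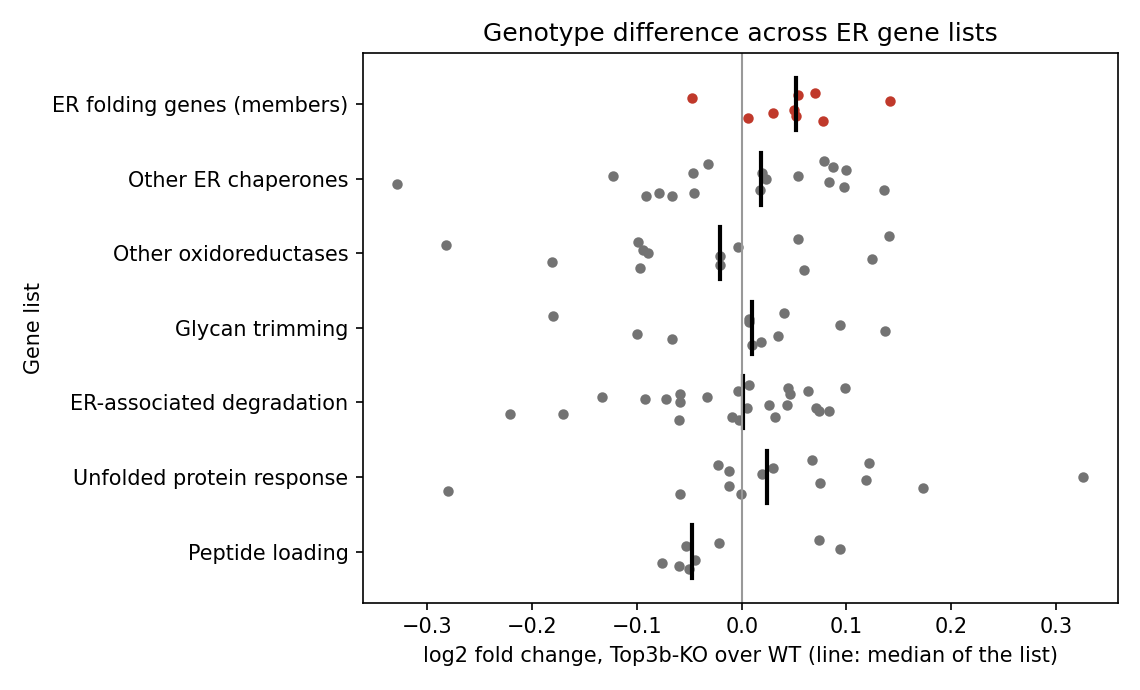
Log2 fold change, Top3b-KO over WT, of each tested gene in the ER folding set (red) and in 6 further ER and peptide-loading lists (grey), with a black line at each list's median. The medians lie between -0.047 and 0.052, and 0 of the genes shown passed an adjusted p of 0.05 by edgeR (0 of 9 and 3 of 88 at an unadjusted p under 0.05).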

How the data were processed

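The authors deposited one table of expected counts per gene symbol, not scaled for depth or length, and 6 count columns were used. STAR and mm39 are named per the submitters' processing notes, whereas no source at hand names the counting tool or its strand setting. Values of 72 symbols were not whole within 1e-06, none of them among the 9 genes, and all were rounded. Genes kept by filterByExpr (18716) were tested with edgeR 4.0.16 (R 4.3.3), using quasi-likelihood F tests (two-sided, TMM scaling, robust=TRUE, a model of genotype alone) and a Benjamini-Hochberg threshold of 0.05. DESeq2 1.42.0 and limma 3.58.1 (voom) were alternatives. Log2 CPM used a prior count of 2. The genes and lists were chosen with earlier results of these data known. In each further list the 2 most abundant genes and the 2 with the smallest p were named, with any past the threshold, and outside the 9 genes the 6 most alike in profile (predicted genes left out). Marchf6 was matched by its current symbol. Floors of 3 counts and intervals cover counting error or library spread only. Libraries of one genotype differed beyond sampling noise (chi-square over degrees of freedom 3.38 or more), so no library was counted as a repeat of another, which does not show that they came from separate animals. RefSeq promoters are of GRCm38.p6, a build other than mm39.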

Additional observations from a re-analysis of the deposited data

How the results depend on the processing

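Over 15 alternatives (scaling, filter, test, dispersion, replicate block and leaving out a library), 0 of the 9 ER folding genes passed the adjusted threshold in each, and their median log2 fold change stayed above 0. With single libraries left out it ran between 0.026 (WT replicate 2 omitted) and 0.091 (WT replicate 1 omitted), and was 0.030 on omitting Top3b-KO replicate 1 or WT replicate 3, 0.079 on omitting Top3b-KO replicate 3. Canx had an unadjusted p under 0.05 in 4 alternatives: no filter (0.027), limma-voom (0.039), Top3b-KO replicate 3 omitted (0.043) and WT replicate 3 omitted (0.0091), with adjusted p between 0.21 and 1.00 over all 15. Signs changed for Edem1 (-0.0056 by library totals, -0.019 without Top3b-KO replicate 1, -0.037 without WT replicate 2), Pdia4 (-0.0083 without Top3b-KO replicate 2, -0.0069 without WT replicate 3), Pdia3 (-0.017 without WT replicate 2), Manf (-0.015 without WT replicate 3) and Herpud1 (0.0042 without Top3b-KO replicate 2). With 1 library left out, Calr ran from 0.030 to 0.14, Canx from 0.080 to 0.19, Pdia3 from -0.017 to 0.093, Pdia4 from -0.0083 to 0.091, Pdia6 from 0.028 to 0.12, Manf from -0.015 to 0.15, Herpud1 from -0.088 to 0.0042, Sel1l from 0.026 to 0.090 and Edem1 from -0.037 to 0.037. The number of the 9 genes without overlap between genotypes, 0 with all libraries, ranged from 0 to 4 when a library was left out (2 without Top3b-KO replicate 3, 4 without WT replicate 1, 1 without WT replicate 3), where 18.2% to 31.0% of all tested genes did not overlap. Top3b passed in all 15 (-0.90 to -0.84). Beside 2 genes over the whole table, 44 passed with no filter, 6 with DESeq2, 1 with robust=FALSE and 1 to 32 with a library left out (9 without Top3b-KO replicate 1, 32 without WT replicate 3). The replicate block gave 41 genes and 0 of the 9. Deviations of same-numbered libraries correlated over genes at 0.363, -0.0998 and -0.0238, and 2 of the 3 Top3b-KO libraries were closer to a WT library of another number, so shared numbers were not read as pairs. For each of these shifts the cause was not tested. The shallowest library, Top3b-KO replicate 3, sets the limit from depth.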
